A study of Mus musculus with 9 samples.

Results

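Cytosolic ribosomal protein genes encode the proteins of the small and the large subunit of the ribosome that translates nuclear messages. They were taken by symbol (Rps or Rpl, with the stalk genes Rplp, followed by a number and at most 1 letter a, x or y) from the array annotation, and 41 of the 18193 genes with a single symbol met that rule, 19 of the small and 22 of the large subunit. These 41 genes had 92 probe sets in all, and each gene is represented by the brightest of its probe sets, averaged over the 9 arrays. A further 110 probe sets are annotated to several symbols with at least 1 ribosomal protein among them, and 27 ribosomal protein genes that only they carry are not analysed here as single genes.

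The study used Affymetrix arrays to measure total RNA of mouse granulosa cells, the steroid-producing somatic cells of the ovarian follicle. The arrays labelled WNT4 (3) held cells given an adenovirus that overexpresses WNT4, a secreted ligand of the WNT family. The arrays labelled Cre (3) held cells given an adenovirus for Cre, a recombinase that cuts out floxed DNA, here aimed at a floxed Ctnnb1, which encodes beta-catenin. The arrays labelled GFP (3) held cells given an adenovirus for eGFP and are the submitters' control. All 9 share their source and handling: mice of 20 to 26 days, primed with eCG for 48 h, cells left to attach overnight in medium with 1% serum, then infected for 24 h without serum. The mice are described only as being of various genotypes, so which cultures carried the floxed alleles is not given. The virus dose was about 50 infectious units per cell (the multiplicity of infection), every group was infected, and no uninfected group is among the arrays.

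Ribosomal proteins are made in near equal numbers, assembled onto ribosomal RNA in the nucleolus and degraded when unassembled. Their messages are among the most abundant of a growing cell, and most start with a run of pyrimidines, the TOP tract, through which mTOR signalling controls their translation. In the follicle, FSH activates mTOR signalling and protein synthesis in granulosa cells.

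The promoters of these genes show what the members have in common beyond their names. RefSeq promoter windows (GRCm38.p6, 250 bases before and 50 after an annotated start) were matched for 36 of the 41 genes. A C at the annotated start followed by at least 4 bases that are C or T, the form of a TOP tract, was present in 8 of the 36 genes (22.2%) and in 3.01% of all 27025 genes with a window. With the C allowed within 10 bases of the start on either side, 23 of 36 (63.9%) and 34.4% of all genes had such a tract. The 8 genes with the tract exactly at the start are shown from 40 bases before to 20 after the start, with the tract in capitals, because their probe sets fall on both sides of the division into bright and dimmer ones that the results turn on.

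Rplp2 (chr7:141447611-141447670, plus strand): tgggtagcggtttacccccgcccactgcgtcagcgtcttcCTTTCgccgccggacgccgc
Rpl35 (chr2:39005112-39005171, minus strand): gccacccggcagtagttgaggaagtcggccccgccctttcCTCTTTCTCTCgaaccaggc
Rpl38 (chr11:114668540-114668599, plus strand): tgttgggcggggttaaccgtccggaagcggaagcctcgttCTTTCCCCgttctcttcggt
Rps18 (chr17:33955646-33955705, minus strand): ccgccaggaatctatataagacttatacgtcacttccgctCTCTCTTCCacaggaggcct
Rps10 (chr17:27635225-27635284, minus strand): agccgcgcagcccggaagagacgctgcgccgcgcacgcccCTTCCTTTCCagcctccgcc
Rps6 (chr4:86857348-86857407, minus strand): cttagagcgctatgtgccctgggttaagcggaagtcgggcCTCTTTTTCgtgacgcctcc
Rpl14 (chr9:120571477-120571536, plus strand): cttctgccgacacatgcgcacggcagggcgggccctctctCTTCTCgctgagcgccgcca
Rps27 (chr3:90213629-90213688, minus strand): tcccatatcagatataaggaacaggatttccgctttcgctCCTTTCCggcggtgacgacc

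Beyond the tract, CCGGAAG, the core that ETS factors recognise, was present on either strand in 17 of the 36 genes (47.2%), against 9.93% of all genes. TCGCGAGA, a palindrome-like element of core promoters, was present in 8 (22.2%), against 1.13%. The examples below show each word in capitals near the start, CCGGAAG in Rpl11 and Rpl37 and TCGCGAGA in Rps28 and at the downstream annotated start of Rpl10a.

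Rpl11 (chr4:136053374-136053433, minus strand): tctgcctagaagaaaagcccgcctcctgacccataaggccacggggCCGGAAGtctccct
Rpl37 (chr15:5116573-5116632, plus strand): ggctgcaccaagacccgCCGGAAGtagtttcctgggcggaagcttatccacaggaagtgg
Rps28 (chr17:33824543-33824602, minus strand): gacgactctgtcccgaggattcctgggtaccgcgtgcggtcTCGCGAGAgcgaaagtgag
Rpl10a (chr17:28328525-28328584, plus strand): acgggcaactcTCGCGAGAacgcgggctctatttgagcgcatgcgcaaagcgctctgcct

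Other words were nearer to the share in all genes. CCGCCC, the core of GC boxes, was in 20 of 36 (55.6%) against 38.2% of all genes, AAGATGGC, the core that YY1 recognises, in 3 (8.33%) against 3.19%, and TATAAA in 5 (13.9%) against 15.7%, each on either strand. None of these words contains another, though matches of different words may overlap in a window. A match describes the letters in the window and not a bound site, and the form of the tract and the examples shown were settled after the windows and array values had been seen.

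The arrays bear on the labels only in part. The brighter Wnt4 probe set read 8.97, 9.89 and 9.16 (log2) on the arrays labelled WNT4, 11.25, 10.47 and 10.18 on those labelled Cre, and 9.93, 9.16 and 9.13 on those labelled GFP, so the labels WNT4 and GFP overlapped. The dimmer one read 9.91, 9.62 and 8.36 on arrays labelled WNT4, 10.01, 9.81 and 9.05 on those labelled Cre, and 9.13, 7.57 and 8.27 on those labelled GFP. The difference between WNT4 and GFP was 0.97 ± 0.49 (adjusted p = 0.447) for the dimmer one and -0.07 ± 0.34, near 0, for the brighter one. Both had their highest mean on arrays labelled Cre. Between Cre and GFP the brighter one differed by 1.23 ± 0.34 without overlap, and the dimmer one by 1.30 ± 0.49 with overlap. The brighter one was also lower in WNT4 than in Cre without overlap (-1.30 ± 0.34). The brightest Ctnnb1 probe set read 14.08, 13.44 and 13.80 on arrays labelled WNT4, 12.96, 13.55 and 13.33 on those labelled Cre, and 13.40, 12.92 and 13.42 on those labelled GFP, with no drop under Cre. Where these probe sets lie relative to the viral insert and the floxed exons is not known here, so these readings do not settle the labels, and every direction below is that of the labelled groups. The list of 10 granulosa markers, with Inha, Inhba and Foxl2 among them, had a median of 9.93 to 10.94 on arrays labelled WNT4, 9.82 to 10.35 on those labelled Cre and 9.93 to 10.59 on those labelled GFP. Of the 10, 1 averaged under 6. Between WNT4 and GFP, 5 read higher and 5 lower.

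The ribosomal protein genes were among the brightest features of the arrays. Of the 41, 31 lay in the top 1% of probe sets by mean signal, 32 had a mean of at least 12 and 9 a lower one. Signals of different probe sets depend on their probes and are not compared here as message amounts, so the order that follows describes brightness. The 3 brightest were Rps3, a small subunit protein at the entry of the message channel, with a mean of 14.31, Rps7, a small subunit protein needed for ribosomal RNA processing, with 14.20, and Rpl41, the shortest of the large subunit proteins, with 14.20. The 3 dimmest were Rps16 with 4.41, Rps27 with 6.11 and Rpl39 with 7.13, and the other 6 under 12 were Rpl12, Rpl27a, Rpl14, Rps25, Rpl37 and Rps6, between 7.23 and 9.97.

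**Figure D1:**
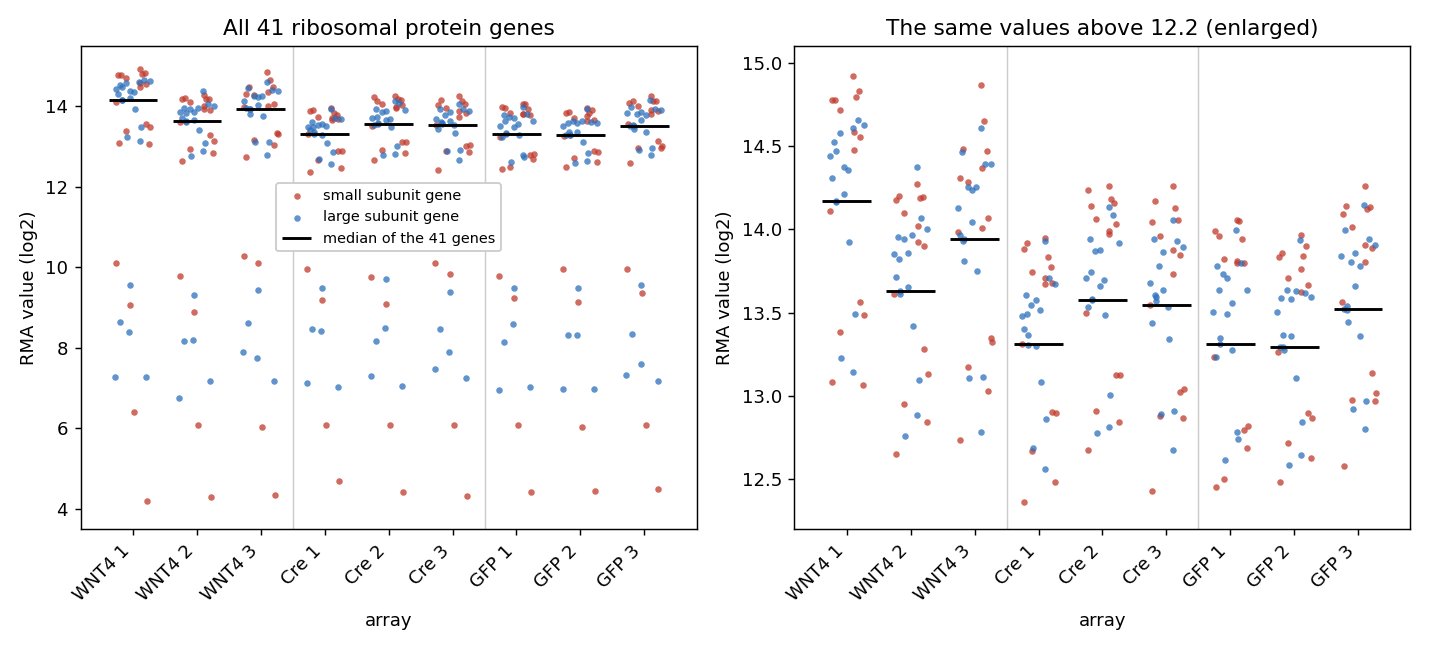
RMA values (log2) of the 41 ribosomal protein genes on each of the 9 arrays, small subunit genes in red and large subunit genes in blue, with the median of the 41 as a bar and the upper range enlarged at right. The median bar is highest on arrays WNT4 1 (14.17) and WNT4 3 (13.94), while WNT4 2 (13.63) lies close to Cre 2 (13.57) and GFP 3 (13.52).

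Between the arrays labelled WNT4 and GFP, no ribosomal protein gene passed the test, and the bright ones read higher together by a similar amount. In the deposited values the median difference over the 41 genes was 0.45 on the log2 scale, 38 genes read higher and 3 lower, and the genes with a mean of at least 12 all read higher, by 0.19 to 0.65. The members' median was 14.17, 13.63 and 13.94 on the arrays labelled WNT4, and 13.31, 13.29 and 13.52 on those labelled GFP. All 3 medians labelled WNT4 lay above the 3 labelled GFP, the nearest being WNT4 2 and GFP 3, and the pooled SD of this median between arrays of a group was 0.19. Over all 45037 tested probe sets the median difference was -0.0016.

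No member was called in that comparison (limma, adjusted p under 0.05 over all tested probe sets), where 7 probe sets or 0.0155% of all were called. At an unadjusted p under 0.05, 29 of the 41 genes were higher, against 9.12% of all probe sets, and 0 were lower, against 3.91%. The 3 arrays of each label did not overlap for 24 genes that were higher in WNT4, against 9.28% of all probe sets, and for 1 that was lower, Rps16, against 5.49%. The replicates are named biological by the labels, nothing says that they came from separate animals, and the spread behind the p-values may be technical.

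Among the large subunit genes, the P proteins of the stalk, which recruits translation factors, were near the top of the order. Rplp0, the base of the stalk, read 14.65, 14.07 and 14.39 on arrays labelled WNT4, and 13.80, 13.62 and 13.94 on those labelled GFP. Rplp2, a stalk partner, read 14.62, 14.00 and 14.39 on arrays labelled WNT4, and 13.63, 13.60 and 13.91 on those labelled GFP. Every array labelled WNT4 was above every array labelled GFP for both, with array WNT4 2 the lowest of its label. The difference was 0.59 ± 0.17 for Rplp0 and 0.63 ± 0.17 for Rplp2 (SE from limma), with adjusted p = 0.233 and 0.217.

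The largest difference of all members was that of Rpl19, a large subunit protein near the bridge to the small subunit. Its values were 14.31, 13.71 and 13.96 on arrays labelled WNT4, and 13.23, 13.29 and 13.52 on those labelled GFP, which did not overlap. The difference was 0.65 ± 0.15 (adjusted p = 0.182). Rpl41, with the lowest p among the members, read 14.61, 14.37 and 14.61 on arrays labelled WNT4, and 14.00, 13.94 and 14.15 on those labelled GFP, a difference of 0.50 ± 0.11 (adjusted p = 0.174).

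Rpl35, at the exit of the nascent chain, read 14.36, 13.96 and 14.26 on arrays labelled WNT4, and 13.56, 13.63 and 13.78 on those labelled GFP, which did not overlap, and differed by 0.54 ± 0.12 (adjusted p = 0.178). Rpl8, in the core near the peptidyl transferase centre, differed by 0.53 ± 0.15, Rpl4, which lines the exit tunnel, by 0.52 ± 0.16, and Rpl38, which is needed for translation of Hox messages in mouse embryos, by 0.51 ± 0.15. Rpl22, which is dispensable for growth in mice and has a close paralog, differed by 0.56 ± 0.17, and Rpl13a, which also acts in inflammatory silencing of messages, by 0.53 ± 0.16. Lower in the order were Rpl10a, which is present on some ribosomes and absent from others in mouse cells, with 0.44 ± 0.15 and Rpl11, which binds and inhibits Mdm2, with 0.38 ± 0.12.

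Small subunit genes gave the same picture with a slightly lower median. Rps3 read 14.92, 14.27 and 14.87 on arrays labelled WNT4, and 14.05, 13.97 and 14.26 on those labelled GFP. The lowest array labelled WNT4 exceeded the highest labelled GFP by little. The difference was 0.59 ± 0.18 (adjusted p = 0.253). Rps19, whose human counterpart is mutated in Diamond-Blackfan anaemia, differed by 0.55 ± 0.15, Rps7 by 0.54 ± 0.17, Rps29, a zinc-binding protein of the head of the subunit, by 0.52 ± 0.17, Rps4x, encoded on the X chromosome, by 0.51 ± 0.17 and Rps2, at the message entry, by 0.50 ± 0.15. Lower in the bright range were Rps14 (0.39 ± 0.15), Rps20 (0.39 ± 0.17), Rps15 (0.35 ± 0.15), Rps26 (0.32 ± 0.16) and Rps24 (0.32 ± 0.13).

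The 9 members with a mean under 12 had a median difference of 0.12, with 6 higher and 3 lower. Rps16 read 4.20, 4.31 and 4.35 on arrays labelled WNT4, and 4.43, 4.46 and 4.49 on those labelled GFP, a difference of -0.17 ± 0.11 (adjusted p = 0.554) near the lower end of the array's range. Rpl37 read 9.56, 9.31 and 9.44 on arrays labelled WNT4, and 9.48, 9.48 and 9.56 on those labelled GFP, with a difference of -0.07 ± 0.11.

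Rps6, the ribosomal substrate of kinases downstream of mTOR, read 10.10, 9.78 and 10.28 on arrays labelled WNT4, and 9.78, 9.96 and 9.97 on those labelled GFP, so its groups overlapped (0.15 ± 0.15). Rpl27a and Rps25 spread most between arrays of a label. Rps25 read 9.05, 8.90 and 10.10 on arrays labelled WNT4, and 9.25, 9.14 and 9.37 on those labelled GFP, while Rpl27a read 8.40, 8.19 and 7.76 on arrays labelled WNT4, and 8.59, 8.32 and 7.60 on those labelled GFP. For Rpl27a the array numbered 3 read lowest in both labels. For Rps25 array WNT4 3 stood apart upward, while GFP 3 lay close to the other arrays labelled GFP. The 5 genes with a tract at the start that were bright (Rplp2, Rpl35, Rpl38, Rps18, Rps10) and the 3 that were not (Rps6, Rpl14, Rps27) thus lay on both sides of this division, and the median difference was 0.44 over the 8 genes with the tract and 0.45 over the other 28.

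**Figure D2:**
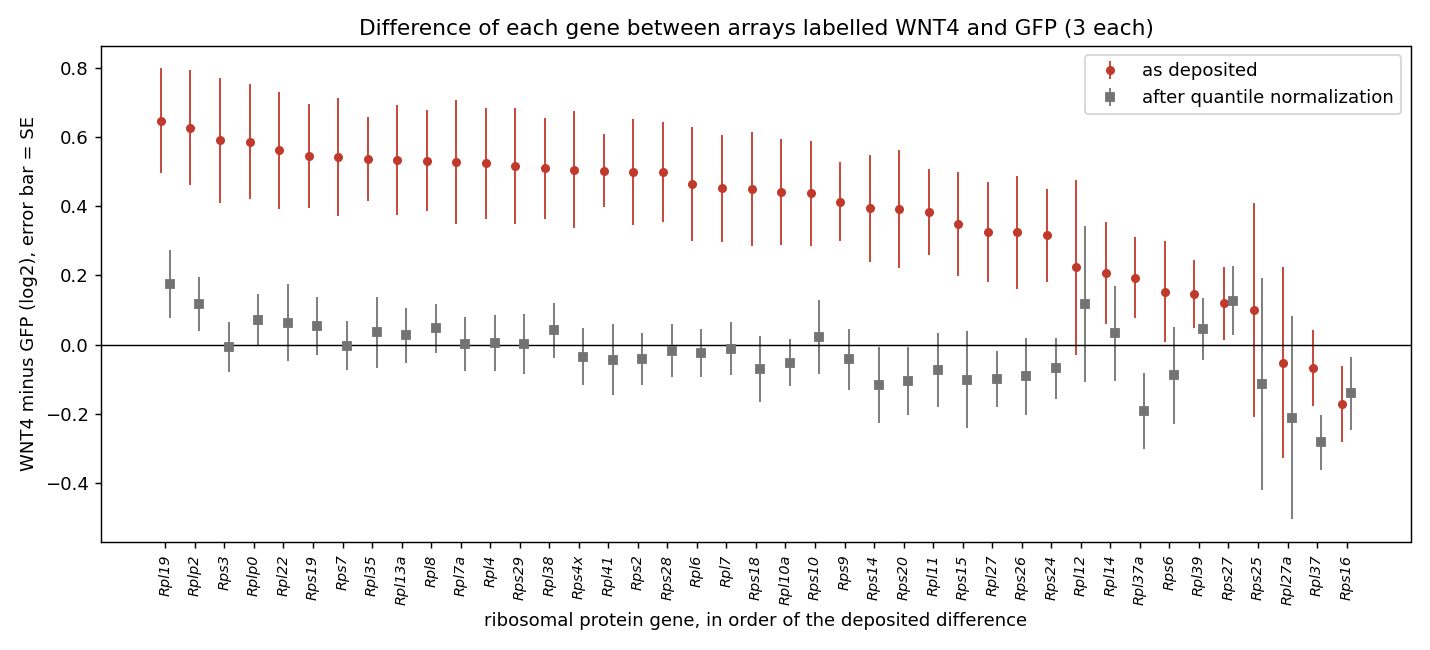
Difference between arrays labelled WNT4 and GFP (log2, 3 arrays each) for each of the 41 genes in order of size, with the model's standard error, from the deposited values (red) and after quantile normalization (grey). The deposited differences run from 0.65 (Rpl19) to -0.17 (Rps16), and after quantile normalization they lie between 0.18 (Rpl19) and -0.28 (Rpl37).

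The difference followed the level of the probe set across the whole array. Probe sets not annotated to the members or shared among ribosomal protein symbols that averaged at least 12 (704) had a median difference of 0.40, those from 10 to 12 (3083) of 0.28, those from 6 to 10 (14691) of 0.11 and those under 6 (26357) of -0.04. The bright members' median was 0.50, and probe sets of all kinds with a mean of 14 to 15 (66, members included) had a median of 0.52. The 99th percentile of the array's values was 13.09, 12.64 and 12.91 on arrays labelled WNT4, 12.42, 12.68 and 12.64 on those labelled Cre, and 12.46, 12.39 and 12.59 on those labelled GFP, in much the same order as the members' medians. The array medians, in contrast, ran only between 5.44 and 5.54. RMA as usually run includes quantile normalization over the arrays processed together, which gives them a common distribution, and these deposited values do not have one.

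Quantile normalization gives every array the same distribution of values. A shift shared by the brightest probe sets is thereby taken towards 0, whatever its source. The members' difference was then close to 0. The members' median was 13.64, 13.64 and 13.58 on arrays labelled WNT4, and 13.53, 13.58 and 13.57 on those labelled GFP. The median difference was -0.02, with 17 genes higher and 24 lower, and the other bright probe sets also had a median of -0.02. No member was called, and 3 probe sets or 0.00666% of all were. At an unadjusted p under 0.05, 1 member was lower, Rpl37, against 4.99% of all probe sets, and 0 were higher, against 4.61%.

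After that normalization the arrays did not overlap for 2 members that were higher in WNT4, Rpl19 and Rplp2, against 6.75% of all probe sets. They did not overlap for 4 that were lower, Rpl10a, Rpl27, Rpl37 and Rps16, against 6.63%. Rpl19 still had the largest difference, 0.18 ± 0.10, and Rplp2 had 0.12 ± 0.08. Rpl37 had -0.28 ± 0.08 (adjusted p = 0.312) and Rpl37a, a zinc-binding protein of the large subunit, had -0.19 ± 0.11.

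**Figure D3:**
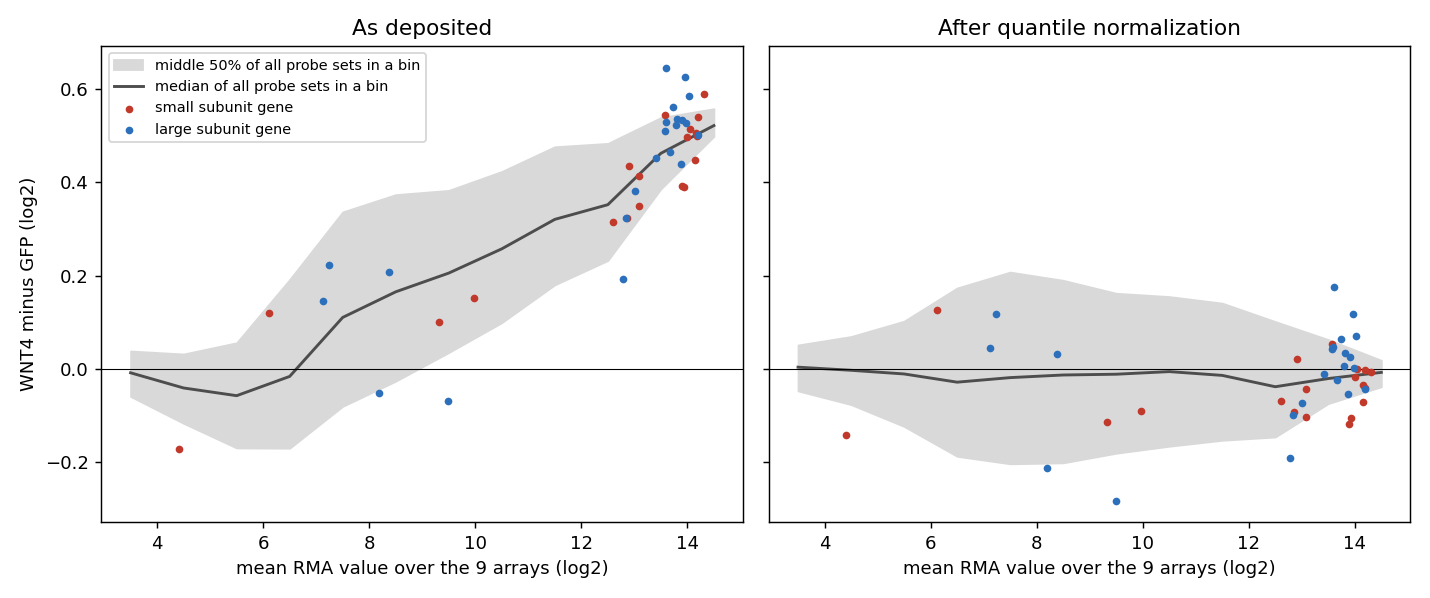
Difference between arrays labelled WNT4 and GFP (log2) of each ribosomal protein gene against its mean RMA value, over the median (line) and the middle 50% (shading) of all probe sets in bins 1 unit wide, from deposited values (left) and after quantile normalization (right). The line climbs to 0.52 in the brightest bin at left, with the members along it, and lies within 0.04 of 0 at right.

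Single arrays did not carry the difference evenly. On array WNT4 1, all 32 members with a mean of at least 12 were above all 3 arrays labelled GFP, on WNT4 3 there were 30 and on WNT4 2 there were 26, with the rest inside the GFP range. Of all probe sets, 31.6%, 26.8% and 29.8% were above all 3 arrays labelled GFP on WNT4 1, 2 and 3, and of the 704 other bright ones 89.2%, 53.1% and 80.8%. Counted over all 41 against their own GFP mean, 39, 35 and 37 were higher on arrays WNT4 1, 2 and 3, and 11, 3 and 40 on GFP 1, 2 and 3. Over all probe sets the shares above that mean were 46.8%, 50.5% and 48.4% on WNT4 1, 2 and 3, and 49.8%, 49.6% and 47.7% on GFP 1, 2 and 3. The arrays labelled GFP thus differed among themselves, with 40 of the 41 above their mean on GFP 3. Without array WNT4 2, in the deposited values, 7 of the 41 members and 748 of all 45037 tested probe sets were called. Among these members were Rpl19 (0.79), Rps3 (0.80), Rplp2 (0.80), Rpl35 (0.65), Rpl8 (0.68) and Rpl41 (0.58), with adjusted p from 0.0424 to 0.0487.

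Other features also differed between the arrays. The signal of the actin 3′ probe set over its 5′ probe set, a measure of RNA integrity, was 1.38, 0.98 and 1.30 (log2) on arrays labelled WNT4, 1.05, 1.13 and 1.07 on those labelled Cre, and 1.28, 1.12 and 1.08 on those labelled GFP. For Gapdh the same measure was 2.17, 1.88 and 1.36 on arrays labelled WNT4, 1.79, 1.86 and 0.95 on those labelled Cre, and 1.80, 1.80 and 1.77 on those labelled GFP, highest on WNT4 1, where the members were also highest. The list of 8 theca and stroma markers had a median of 8.83, 6.18 and 6.54 on arrays labelled WNT4, 6.44 to 6.77 on those labelled Cre, and 6.19 to 6.56 on those labelled GFP. The list of 8 oocyte markers ranged from 6.60 to 8.57 on arrays labelled WNT4, from 6.55 to 7.95 on those labelled Cre and from 6.36 to 7.62 on those labelled GFP, again highest on WNT4 1. On WNT4 3, where the members were next highest, the Gapdh measure was below that of every array labelled GFP. The actin measure on WNT4 3 (1.30) was above that of every array labelled GFP, the nearest being GFP 1 (1.28). Both marker lists lay within the GFP range on that array. The part of these features in the members' values was not tested. In RNA of a whole culture, fewer cells of a type and less RNA per cell cannot be told apart.

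Between the arrays labelled Cre and GFP the ribosomal protein genes read nearly alike. The members' median was 13.31, 13.57 and 13.55 on arrays labelled Cre, against 13.31, 13.29 and 13.52 on those labelled GFP, and the 2 sets overlapped. The median difference was 0.06, with 37 genes higher and 4 lower. No member was called (0.0% of all probe sets were), and at an unadjusted p under 0.05 there were 0 higher and 0 lower, against 1.01% and 1.22% of all. The arrays did not overlap for 1 member that was higher, Rps27, against 2.98%, and for 0 that were lower, against 3.04%.

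That Rps27 result rests on very close values. Rps27 read 6.10 on all 3 arrays labelled Cre, and 6.08, 6.02 and 6.09 on those labelled GFP, a difference of 0.03 ± 0.11. The largest difference between these labels was that of Rpl12, with 0.21 ± 0.25, followed by Rpl38, with 0.13 ± 0.15, and Rpl8, with 0.13 ± 0.15. The smallest were those of Rpl35 (-0.07 ± 0.12), Rpl37a (-0.06 ± 0.12), Rps26 (-0.03 ± 0.16) and Rps24 (-0.02 ± 0.13). After quantile normalization the median difference was -0.01, Rpl38, Rpl8 and Rps27 were higher without overlap (4.07% of all probe sets were) and Rpl37a and Rps26 lower (3.72%). No member was called or reached an unadjusted p under 0.05 then, against 1.31% of all probe sets higher and 1.3% lower. On array Cre 1 only 8 of the 41 genes were above their GFP mean, against 36 on Cre 2 and 34 on Cre 3, where the shares of all probe sets were 44.6%, 46.6% and 43.5%.

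Between the arrays labelled WNT4 and Cre the bright genes again read higher in WNT4. This comparison shares its WNT4 arrays with the first and is not a second measurement of it. The median difference was 0.38, with 37 genes higher and 4 lower, and no member was called (0.0% of all probe sets were). At an unadjusted p under 0.05, 25 members were higher, against 5.07% of all probe sets, and 0 were lower, against 1.17%. The arrays did not overlap for 20 members that were higher, against 5.38%, and for 0 that were lower, against 2.85%. Rpl35 had the largest difference, 0.61 ± 0.12 (adjusted p = 0.773), with 14.36, 13.96 and 14.26 on arrays labelled WNT4, against 13.52, 13.70 and 13.54 on those labelled Cre. Rpl19 followed with 0.54 ± 0.15, Rps3 with 0.53 ± 0.18, Rpl13a with 0.52 ± 0.16 and Rpl4 with 0.52 ± 0.16. The 4 lower genes were Rps16 (-0.19 ± 0.11), Rpl27a (-0.16 ± 0.28), Rpl37 (-0.10 ± 0.11) and Rps25 (-0.02 ± 0.31). After quantile normalization the median difference was 0.005, and Rpl10a and Rpl37 were lower without overlap (4.2% of all probe sets were) and 0 higher (4.49%). At an unadjusted p under 0.05, 1 member was then lower, against 2.02% of all probe sets, and 0 were higher, against 1.98%.

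In the deposited values, small and large subunit genes differed by similar amounts in each comparison. The median difference between arrays labelled WNT4 and GFP was 0.41 over the 19 small and 0.48 over the 22 large subunit genes. Between Cre and GFP it was 0.06 over each, and between WNT4 and Cre it was 0.35 over the small and 0.40 over the large. On single arrays the small minus the large median was -0.08, -0.03 and 0.05 on those labelled WNT4, -0.03, -0.08 and -0.01 on those labelled Cre, and -0.09, -0.03 and 0.05 on those labelled GFP. The 3 labels overlapped in this measure, and its pooled SD between arrays of a label was 0.06. After quantile normalization the median difference between WNT4 and GFP was -0.04 over the small subunit genes, with 4 of 19 higher. Over the large subunit genes it was 0.02, with 13 of 22 higher. Between Cre and GFP the medians were then -0.004 and -0.01, and between WNT4 and Cre 0.005 and 0.01.

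The subset of genes with a mean of at least 12 (15 small, 17 large) was chosen after the values were seen. In it the small minus large medians of Cre and GFP overlapped, and those of WNT4 lay a little below both. The small minus the large median was then 0.196, 0.101 and 0.027 on arrays labelled WNT4, 0.201, 0.295 and 0.239 on those labelled Cre, and 0.293, 0.299 and 0.226 on those labelled GFP. After quantile normalization it was 0.186, 0.101 and 0.035 on arrays labelled WNT4, 0.212, 0.289 and 0.244 on those labelled Cre, and 0.268, 0.316 and 0.234 on those labelled GFP. The arrays labelled WNT4 were the 3 lowest on both scales, with WNT4 1 and Cre 1 close to each other. With 3 arrays against 3, an exact permutation test cannot go below p = 0.1, and none was made on this subset.

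Probe sets of 1 gene did not always give the same difference. The 3 probe sets of Rps3 had means from 5.19 to 14.31 and differences between arrays labelled WNT4 and GFP from -0.42 to 0.59. The dimmest of them read 4.94, 4.95 and 4.84 on arrays labelled WNT4, against 5.46, 5.36 and 5.17 on those labelled GFP, without overlap and in the opposite direction to the brightest. Differences ran from -0.31 to 0.39 over the 4 probe sets of Rps20, from -0.33 to 0.32 over the 6 of Rps24 and from -0.04 to 0.55 over the 6 of Rps18. Among probe sets averaging 10 or more the ranges were narrower, 0.36 to 0.39 for Rps20, 0.13 to 0.32 for Rps24 and 0.39 to 0.55 for Rps18. Ribosomal protein genes have many processed pseudogenes, and probe sets whose names end in _x_at can read related sequences, as 38 of the 92 do. Those 38 had a median difference of 0.40, the 25 ending in _a_at of 0.44 and the 26 ending in _at alone, which were mostly dim, of 0.11. The 110 probe sets shared between symbols had 0.40, with 101 higher and 9 lower.

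The bright ribosomal proteins outside the naming rule read like the members, and the paralogs varied. Rpsa, a small subunit protein also known as a laminin receptor, differed between arrays labelled WNT4 and GFP by 0.55 ± 0.17, Rps3a1 by 0.53 ± 0.17 and Fau, whose product is cleaved into a ubiquitin-like part and a small subunit protein, by 0.50 ± 0.12. After quantile normalization these were 0.01, -0.002 and 0.06. Rps27l, a paralog of Rps27 that is a p53 target, read 12.48, 11.92 and 11.82 on arrays labelled WNT4, 11.81, 11.69 and 11.69 on those labelled Cre, and 11.46, 11.58 and 11.25 on those labelled GFP. The arrays labelled WNT4 and those labelled Cre were each above those labelled GFP without overlap, and both comparisons use the same GFP arrays. The difference was 0.64 ± 0.17 for WNT4 (adjusted p = 0.223) and 0.30 ± 0.17 for Cre (adjusted p = 1.0). After quantile normalization these were 0.28 ± 0.17 and 0.22 ± 0.17. The largest differences of the members after it were 0.18 ± 0.10 for WNT4 (Rpl19) and 0.17 ± 0.225 for Cre (Rpl12).

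Rpl22l1, the paralog of Rpl22, was likewise above GFP without overlap in both, by 0.42 ± 0.19 for WNT4 and 0.19 ± 0.19 for Cre. For the other paralogs the arrays overlapped between WNT4 and GFP. Rpl3l, of striated muscle, differed by -0.35 ± 0.15 between WNT4 and GFP, Rpl39l, of testis, by -0.06 ± 0.27 and Rps4l by -0.06 ± 0.36, and Rpl7l1 by 0.26 ± 0.15.

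No gene of the other lists of the translation machinery was called in any comparison. Translation factors (40 measured of 46 listed) had a median difference between arrays labelled WNT4 and GFP of 0.43, 39 of them higher, with 0.04 after quantile normalization. Other genes with TOP messages (17 of 21) had 0.41, all 17 higher, with -0.01 after it. Ribosome assembly factors (78 of 79), which process ribosomal RNA and build subunits, had 0.23, with 69 higher and 9 lower, and -0.01 after it. Genes of RNA polymerase I and its factors (18 of 23), which make ribosomal RNA, had 0.22, with 16 higher, and -0.002 after it.

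Genes of the mTOR pathway (27 of 31) had a median difference of 0.32, and 0.16 after it, and those of ribosome quality control (17 of 20), which deals with stalled ribosomes, had 0.42, and 0.16 after it. Mitochondrial ribosomal protein genes (76), taken by symbol after the values were seen, had 0.13, with 64 higher and 12 lower, and -0.10 after it. The marker lists of oocyte, theca and stroma, and granulosa cells had medians of 0.44, 0.27 and -0.28 after it. Between Cre and GFP the medians of the lists of the translation machinery, mTOR and ribosome quality control and of the mitochondrial genes lay between -0.04 and 0.09.

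**Figure D4:**
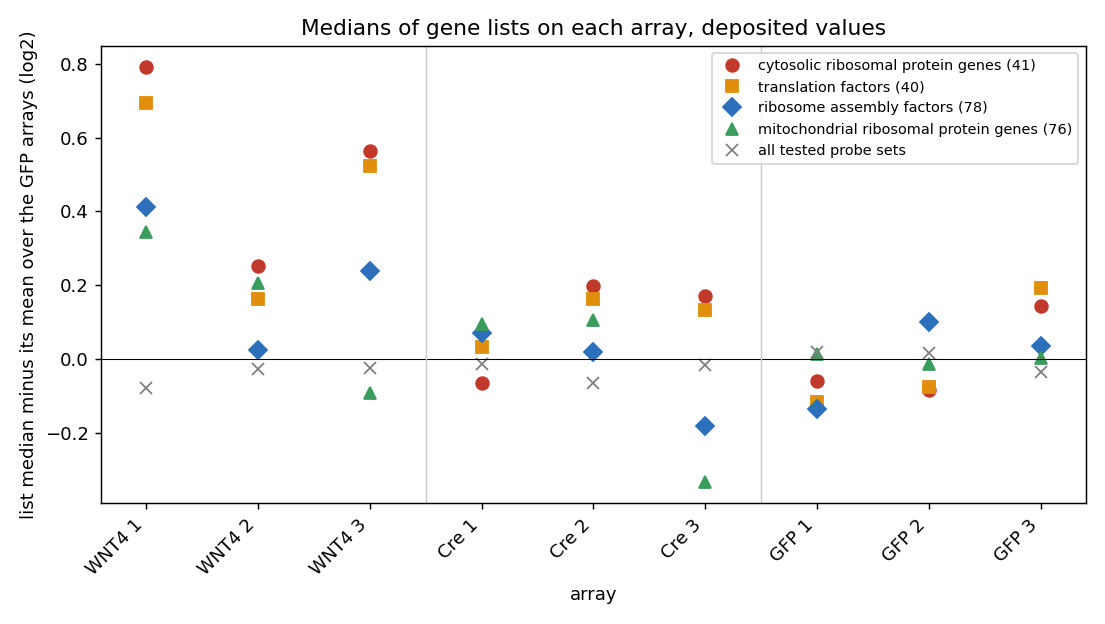
Median of 4 gene lists and of all tested probe sets on each array, from deposited log2 values, each given relative to its mean over the 3 arrays labelled GFP. The cytosolic ribosomal protein genes and the translation factors are highest on arrays WNT4 1 and WNT4 3, and all tested probe sets stay within 0.1 of 0.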

How the data were processed

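RNA of 9 cultures was hybridised to Affymetrix mouse arrays, 3 per label. Per the submitters' processing notes the deposited log2 values come from RMA, whose version and settings are not stated here. The arrays do not share 1 distribution of values, which RMA's usual quantile step would give them, so differences as deposited and after quantile normalization are both reported. The table held 45101 probe sets, 64 controls were left out, and 45037 were tested. Of these, 34945 had 1 symbol in the platform annotation, 932 had several and 9160 are unnamed here, and 34741 matched the RefSeq gene table (GRCm38.p6) by Entrez ID. The values ran from 3.46 to 15.3, and no arrays shared more than 4.53% of equal values.

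All 9 arrays were fitted with limma 3.58.1 in R 4.3.3 (lmFit, eBayes, no covariate, two-sided, Benjamini-Hochberg over all tested probe sets of a comparison, called at an adjusted p under 0.05). Medians over members carry no test. No read depth applies, and precision is limited by how many arrays there are.

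The members and all gene lists were chosen with earlier results of these data known. Members named in the text are those of a fixed set, the extremes of difference, level and spread in each comparison, and those whose probe sets disagreed most. Genes outside that rule (Rps10, Rps28, Rpl14, Rpl27) are named for a sequence or a small count and were picked after their values were seen.

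Replicate numbers occur in every label. Deviations from the group mean of arrays with the same number correlated at -0.08, 0.01 and 0.35 between WNT4 and GFP, at -0.04, -0.31 and 0.31 between Cre and GFP, and at 0.21, 0.24 and 0.77 between WNT4 and Cre. They were all positive in the last comparison only. Whether a number marks a shared animal or day is not given, and arrays with different numbers were not compared, so no pairing is read from these values. Alternatives were quantile normalization, centring arrays on the median or the 75th percentile, the replicate block, the arrays of a comparison alone, an intensity trend, leaving out dim or cross-reacting probe sets, averaging all probe sets of a gene, and leaving out each array.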

Additional observations from a re-analysis of the deposited data

How the results depend on the processing

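With 3 arrays per label the model's standard errors are large, and values near the bottom of the range carry little information. Of the values that answer a comparison (members called, median difference, small minus large subunit), 164 stayed within the limits set for a change and 7 moved. Quantile normalization took the median difference to -0.018 for WNT4 against GFP and to 0.005 for WNT4 against Cre. Taking the mean over a gene's probe sets moved the small minus large difference to -0.148 for WNT4 against GFP and -0.174 for WNT4 against Cre, where many added probe sets were dim. Leaving out 1 array at a time gave 0 to 7 called members for WNT4 against GFP, with 7 only without WNT4 2 (and 748 of all 45037 tested probe sets), and 0 for the other comparisons. The small minus large difference then ran from -0.079 to 0.009 for WNT4 against GFP and from -0.083 to 0.014 for WNT4 against Cre, turning sign without WNT4 3. The median difference ran from 0.334 to 0.581 for WNT4 against GFP, from 0.01 to 0.138 for Cre against GFP and from 0.263 to 0.497 for WNT4 against Cre. With the replicate block 0 members were called in every comparison, so it changed no call. Centring on the 75th percentile gave a median of 0.297 for WNT4 against GFP, where all probe sets then had -0.154. Under quantile normalization the sign changed for 21 of the 41 members in WNT4 against GFP, 20 in Cre against GFP and 15 in WNT4 against Cre. In 5 values of named genes, over all alternatives, the difference was beyond its standard error on both sides of the change: under quantile normalization Rpl37a (-0.192), Rps14 (-0.117) and Rps20 (-0.106) for WNT4 against GFP and Rps20 (-0.105) for WNT4 against Cre, and without _x_at and _s_at probe sets Rps20 (-0.31), which is then read from a dim probe set. The cause of the changes was not tested otherwise. The subset with a mean of at least 12 was chosen after seeing the data.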
